A study of Mus musculus with 22 samples.

Results

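Tgfb2, Inhba, Ltbp2 and Yap1 encode 2 ligands of the transforming growth factor beta (TGF-beta) superfamily, a matrix protein of the latent TGF-beta binding family and the transcriptional coactivator YAP. Every region annotated to 1 of these 4 genes was taken from 4 deposited tables of H3K4me3 differences in mouse synovial fibroblasts, which gave 19 of the 26201 listed regions. The tables list only regions that differed between groups, and the 4 genes were chosen by their presence and direction in them. The differences below are therefore a description of the selected regions, and no p-value of these regions, the authors' or limma's, is independent support for them. Of the 19 regions, 7 had more H3K4me3 in Tg197 or TNF-treated cells, all at Inhba and Yap1, and 12 had less, all at Tgfb2 and Ltbp2. By the authors' adjusted p under 0.05, higher regions made up 9.71%, 20.2%, 29.8% and 24.6% of all listed regions in the 3, 8 and 11 week and TNF tables, in that order, and lower regions 89.5%, 77.2%, 67.0% and 72.3%.

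H3K4me3 is a histone mark of active promoters. TGF-beta 2, the product of Tgfb2, is secreted in a latent form that is held in the matrix until it is released, and it then signals through receptor kinases to SMAD2 and SMAD3. Inhba encodes the subunit that forms activin A, a ligand that signals to the same SMADs through its own receptors and is made by fibroblasts during inflammation. Ltbp2 encodes a protein of microfibrils that resembles the latent TGF-beta binding proteins, although unlike its relatives it does not bind latent TGF-beta itself. Yap1 encodes the coactivator that the Hippo kinases keep out of the nucleus, and YAP acts on its target genes through TEAD transcription factors.

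Synovial fibroblasts are stromal cells that line the joint, and here they were used at passages 4-5 from mice of CBA x C57BL/6J background. Tg197 mice develop arthritis through a transgene for human TNF. The groups were Tg197 and wild-type (WT) cells from mice of 3, 8 and 11 weeks, labelled as early, established and late stages, and WT cells of 8 weeks with TNF. The labels give neither the dose and duration of TNF nor the cells that express the transgene. Each group had 3 H3K4me3 ChIP-seq libraries, and 1 input library served the study. The labels do not say whether the 3 libraries came from separate animals or cultures, so every error below is the spread between libraries. The untreated WT libraries of 8 weeks are the controls of both the 8 week Tg197 table and the TNF table, and these comparisons are not independent.

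The listed regions held 321448 to 2780941 reads per library, and the 19 regions 37 to 1530 reads per library. Promoter regions were listed for 7 of 9 markers of synovial fibroblasts, with an enrichment over input of 2.15 to 11.29 in Tg197 or TNF-treated cells. For 6 leukocyte markers, 3 had one, with an enrichment of 1.73 to 1.91, and the lists of endothelium, muscle, epithelium and of cartilage, bone and fat had 3 of 4, 1 of 3, 1 of 3 and 4 of 6. The markers of cartilage, bone and fat had an enrichment of 1.10 to 6.66 in Tg197 or TNF-treated cells, which reaches into the range of the fibroblast markers. Those with a listed promoter region were lower in each table (2, 3, 3 and 3 genes), the direction of Tgfb2 and Ltbp2 and of most listed regions. All listed leukocyte, muscle and epithelium markers were lower too, and endothelium markers went both ways. Of the fibroblast markers, 4, 2, 4 and 1 were higher and 1, 0, 0 and 1 lower in the 3, 8 and 11 week and TNF tables. Absence from the tables does not mean absence of the mark. The part of other cells in the results was not tested.

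Listed regions lay across or close to the transcription start site (TSS) of Tgfb2 and Yap1, whose promoter sequences are therefore shown. Each run holds 250 bases before and 50 after the start in RefSeq's GRCm38.p6 annotation, read 5′ to 3′ on the gene's own strand, with CpG dinucleotides in capitals. The starts in that build were not matched to those of mm9, the build of the tables.
Tgfb2 (GRCm38.p6, chr1:186705940-186706239, minus strand): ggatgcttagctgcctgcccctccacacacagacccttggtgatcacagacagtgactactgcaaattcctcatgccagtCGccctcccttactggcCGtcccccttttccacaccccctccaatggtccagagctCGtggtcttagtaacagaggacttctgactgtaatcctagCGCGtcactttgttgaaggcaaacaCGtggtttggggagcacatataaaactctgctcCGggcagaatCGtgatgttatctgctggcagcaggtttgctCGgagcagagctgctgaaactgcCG
Yap1 (GRCm38.p6, chr9:8004547-8004846, minus strand): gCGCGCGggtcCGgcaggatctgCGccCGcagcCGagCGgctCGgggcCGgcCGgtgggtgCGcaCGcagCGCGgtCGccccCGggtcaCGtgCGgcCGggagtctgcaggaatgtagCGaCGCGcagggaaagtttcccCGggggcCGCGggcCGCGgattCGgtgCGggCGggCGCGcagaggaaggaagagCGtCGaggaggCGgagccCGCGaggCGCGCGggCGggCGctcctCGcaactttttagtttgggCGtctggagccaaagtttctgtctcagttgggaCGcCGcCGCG
The pair differed in base composition. The Yap1 promoter held 49 CpG dinucleotides at 74.0% G and C, and 99.0% of 32851 RefSeq promoters of the same length had fewer. The Tgfb2 promoter held 10 at 54.3% G and C, with 56.5% of promoters below it. In the Ltbp2 and Inhba promoters there were 20 and 7 CpG dinucleotides, against a median of 7 over all promoters, but no listed region of either gene reached its TSS.

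On both strands, the Yap1 window held 1 match to the TEAD letters GGAATG, starting 141 bases before the start, and 14.7% of all promoters hold one. Tgfb2 had 1 match to the SMAD-type letters CAGACA at -204 (21.0% of promoters) and 1 TATAAA at -31 (13.6%). The AP-1 letters TGANTCA (7.8% of promoters) and a kappa B motif (8.5%) had no match in any of the 4 windows. These are letter matches and say nothing of binding.

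**Figure D1:**
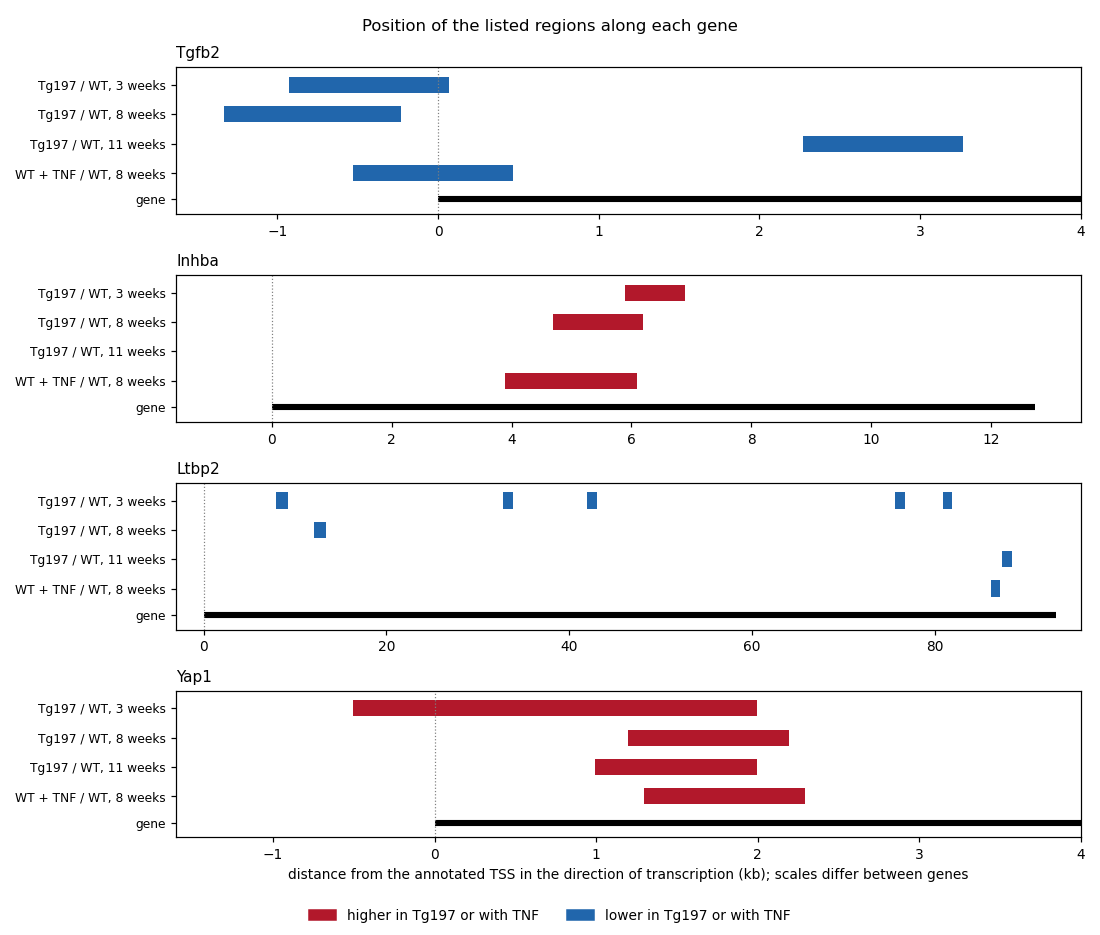
Position of the 19 listed regions relative to the annotated TSS of each gene, in kb along the direction of transcription (x axis, a different scale for each gene) and by table (rows); red bars are regions higher and blue bars regions lower in Tg197 or TNF-treated cells. The Yap1 and Inhba regions pile up at 1 place in each gene, whereas the Ltbp2 regions are spread along the gene with none shared.

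Each value below is a read count normalized by the authors for 1 region, in libraries a, b and c of each group by their place in the deposited cell. They were scaled within each table, so levels are compared within a table only. Log2 changes are Tg197 over WT or TNF-treated over untreated, computed on log2(normalized count + 0.5), and their standard error (SE) is that of limma fitted to all regions of that table. Enrichment is the authors' ratio over input.

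Tgfb2, the first ligand, had less H3K4me3 in all 4 tables, around the TSS in 3 tables and inside the gene at 11 weeks. The gene runs from 188447064 to 188529870 on the minus strand of chromosome 1 (mm9, NM_009367). At 3 weeks the region chr1:188529801-188530800, at -930 to 69 bases from the TSS, had 109, 80.0 and 85.5 normalized reads in Tg197 cells, against 142, 122 and 132 in WT cells. All 3 Tg197 libraries lay below all WT libraries, with library a closest. The means were 91.5 ± 15.3 in Tg197 and 131.8 ± 9.98 in WT cells (SD, n = 3 each), a log2 change of -0.53 ± 0.19 (SE).

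At 8 weeks the Tgfb2 region lay at -1330 to -231 bases from the TSS (chr1:188530101-188531200), sharing 700 bp with that of 3 weeks. Tg197 cells had 55.6, 72.8 and 76.8 normalized reads, against 167, 154 and 97.5 in WT cells. The groups did not overlap, but WT library c stood well below the other WT libraries. The log2 change of -1.0 ± 0.33 was the largest of the gene in size, and it was -1.24 without WT library c.

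At 11 weeks the listed Tgfb2 region lay inside the gene, 2270 to 3269 bases past the TSS (chr1:188526601-188527600), and shared no base with the others. Tg197 cells had 106, 119 and 126 normalized reads, against 142, 179 and 212 in WT cells. Here too every Tg197 library was below every WT library, at a log2 change of -0.59 ± 0.16. With TNF the region spanned the TSS (chr1:188529401-188530400), with 137, 123 and 145 normalized reads in TNF-treated cells, against 221, 188 and 174 in untreated WT cells. The groups did not overlap and the log2 change was -0.52 ± 0.19.

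The authors' enrichment did not follow these counts in every table. At Tgfb2 it was 1.49 in Tg197 and 1.97 in WT cells at 8 weeks, and 2.35 in Tg197 and 3.43 in WT cells at 11 weeks. At 3 weeks it was 2.12 in Tg197 and 2.13 in WT cells. These levels were low. The leukocyte markers listed at 8 weeks had more, with 1.73 to 1.91 in Tg197 and 2.21 to 2.43 in WT cells. The leukocyte marker Itgam had 1.76 in Tg197 and 1.98 in WT cells at 3 weeks. In the TNF table the enrichment at Tgfb2 went the other way from the counts, with 4.03 in TNF-treated and 2.75 in untreated cells. The same held for 52.7% of all lower regions of the TNF table (1175 of 2228), against 3.3%, 10.8% and 0.2% at 3, 8 and 11 weeks. Headers and labels do not say how the enrichment was scaled. The direction at Tgfb2 in TNF-treated cells thus depends on which deposited column is read.

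Inhba, the activin subunit, had more H3K4me3 in 3 tables, each time inside the gene, and no listed region at 11 weeks. The gene spans 16106307 to 16119043 on the plus strand of chromosome 13 (mm9, NM_008380), and its regions began 3894 to 5894 bases past the TSS. At 3 weeks (chr13:16112201-16113200) Tg197 cells had 157, 214 and 144 normalized reads, against 118, 125 and 109.7 in WT cells. Every Tg197 library was higher, and library b stood above the other 2. The means were 171.5 ± 37.3 in Tg197 and 117.5 ± 7.8 in WT cells (SD, n = 3 each), a log2 change of 0.52 ± 0.19.

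At 8 weeks the Inhba region (chr13:16111001-16112500) had 263, 227 and 310.5 normalized reads in Tg197 cells, against 174, 182 and 157 in WT cells. The gap between the groups was wider here than the spread in WT cells, and the log2 change was 0.63 ± 0.21. With TNF (chr13:16110201-16112400) there were 461, 505 and 457 normalized reads in TNF-treated cells, against 335, 366 and 363 in untreated WT cells. The 6 libraries fell into 2 groups without overlap, at a log2 change of 0.42 ± 0.12. All 3 Inhba regions shared 200 bp, and those of the 8 week and TNF tables shared 1400 bp.

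Enrichment at Inhba moved with the counts. It was 3.41 in Tg197 and 1.53 in WT cells at 3 weeks, 4.47 in Tg197 and 1.87 in WT cells at 8 weeks, and 6.45 in TNF-treated and 2.30 in untreated cells. This was usual for higher regions. Their median enrichment was 7.61 in Tg197 and 3.75 in WT cells at 3 weeks, and 6.26 in Tg197 and 2.98 in WT cells at 8 weeks. With TNF it was 8.98 in treated and 3.13 in untreated cells. In the 3 tables that list Inhba, gene bodies held 4.5% of the higher regions at 3 weeks, 7.3% at 8 weeks and 3.0% with TNF, and 51.4%, 38.8% and 33.2% of the lower regions. At 11 weeks, where Inhba was not listed, they held 36.6% of the higher regions.

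**Figure D2:**
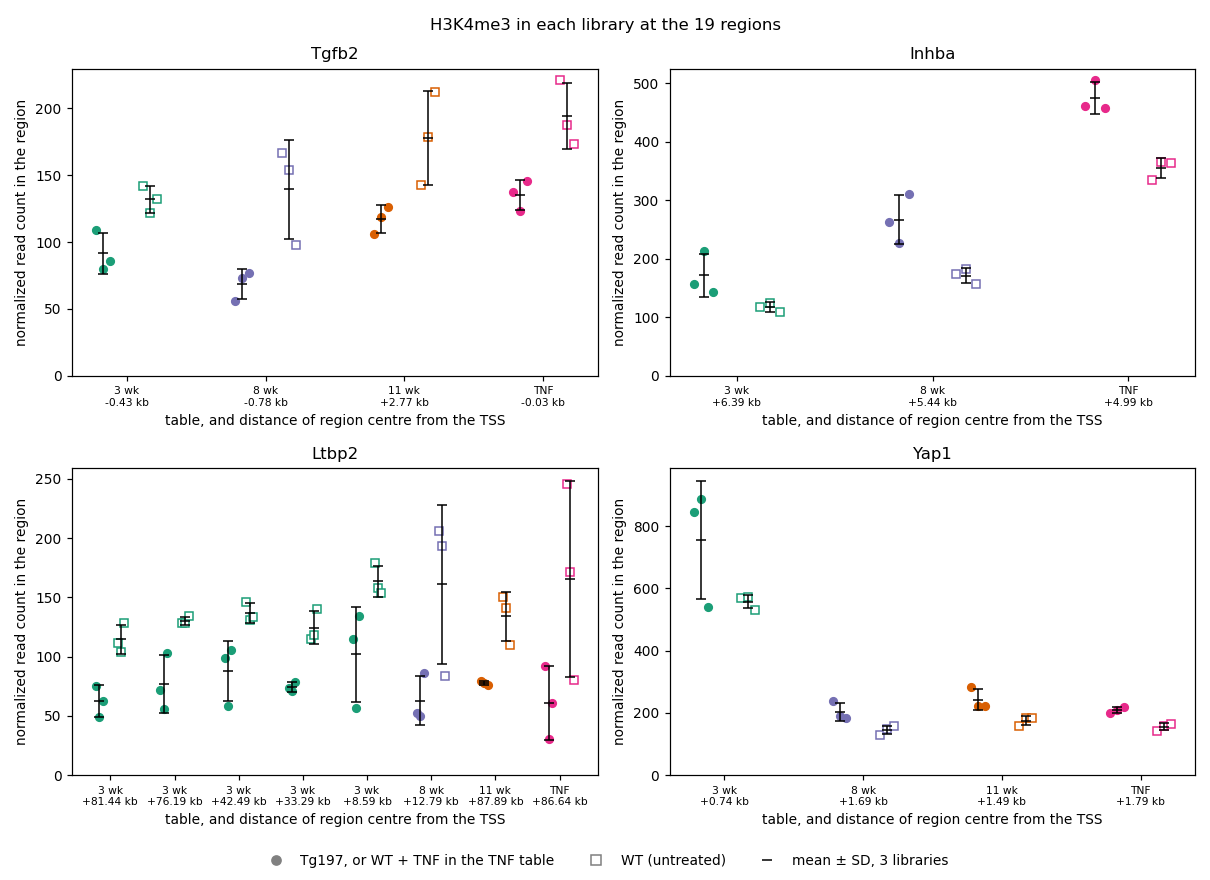
Normalized read count (y axis, from 0, a different scale for each gene) in each library at each of the 19 regions, labelled by table and by distance of the region's centre from the TSS. Filled points are Tg197 or TNF-treated libraries, open squares untreated WT libraries, and black bars mean ± SD of 3 libraries. The Yap1 region of 3 weeks and 2 Ltbp2 regions are the places where the groups overlap.

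Ltbp2, the microfibril gene, had 8 regions, all lower and all inside a gene of 93284 bp that runs from 86124161 to 86217444 on the minus strand of chromosome 12 (mm9, NM_013589). At 3 weeks 5 regions were listed, centred between 8593.5 and 81443.5 bases past the TSS. The most distal of them (chr12:86135501-86136500) had 75.5, 48.7 and 62.5 normalized reads in Tg197 cells, against 111, 104 and 128 in WT cells. Its log2 change of -0.89 ± 0.26 was the largest in size of the 5, and the smallest was -0.68 ± 0.23. In none of the 5 did the groups overlap, and Tg197 library b was the lowest library in each. Without it the region with -0.68 came to -0.42 ± 0.15, and the one nearest the TSS (chr12:86208201-86209500) to -0.39 ± 0.15, against -0.77 ± 0.27 with all libraries. Across them Tg197 libraries ranged from 48.7 to 134.4 normalized reads and WT libraries from 104 to 179.

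The single Ltbp2 regions of the other tables lay elsewhere in the gene. At 11 weeks (chr12:86129001-86130100, centred 87893.5 bases past the TSS) there were 79.2, 77.9 and 76.2 normalized reads in Tg197 cells, against 150.1, 141 and 110.1 in WT cells. The Tg197 libraries were nearly equal and all lay below WT, at a log2 change of -0.77 ± 0.16.

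At 8 weeks and with TNF the groups overlapped at Ltbp2, both times through WT library c. At 8 weeks (chr12:86204001-86205300) Tg197 cells had 52.4, 49.9 and 86.3 normalized reads, against 206, 193 and 83.9 in WT cells. With TNF (chr12:86130301-86131300) there were 92.2, 30.1 and 60.5 normalized reads in TNF-treated cells, against 245, 171 and 80.3 in untreated WT cells. The log2 changes, -1.29 ± 0.43 at 8 weeks and -1.43 ± 0.58 with TNF, had the widest errors of the 19 regions. Without WT library c they were -1.70 at 8 weeks and -1.88 with TNF, and without TNF-treated library b, the lowest, the TNF value was -1.0 ± 0.54.

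No pair of the 8 Ltbp2 regions shared a base, and gaps between neighbours ran from 201 to 32601 bp. Enrichment over input was low, between 1.40 and 1.95 in Tg197 cells against 1.96 to 2.97 in WT cells, and 3.00 in TNF-treated against 4.24 in untreated cells. Per kb, Ltbp2 regions held 48.4 to 79.7 normalized reads in Tg197 cells against 113.2 to 125.7 in WT cells, and 61.0 in TNF-treated against 165.6 in untreated cells.

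Yap1, the Hippo coactivator gene, had more H3K4me3 in all 4 tables at the same place, downstream of its TSS. The gene runs from 7932002 to 8004595 on the minus strand of chromosome 9 (mm9, NM_009534), and 700 bp were shared by all 4 regions. At 3 weeks a region of 2500 bp spanned the TSS and reached 1994 bases into the gene (chr9:8002601-8005100). It had 845, 887 and 539 normalized reads in Tg197 cells, against 570.2, 571 and 532 in WT cells. Libraries a and b of Tg197 stood far above WT, whereas library c lay within the WT range, and the means were 757.0 ± 189.9 in Tg197 and 557.9 ± 22.1 in WT cells (SD, n = 3 each). The log2 change of 0.41 ± 0.22 was 0.63 ± 0.13 without Tg197 library c and 0.28 ± 0.19 without library b.

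The other Yap1 regions were 1000 bp long and lay 995 to 2294 bases past the TSS. At 8 weeks (chr9:8002401-8003400) there were 237, 191 and 182 normalized reads in Tg197 cells, against 130.1, 148 and 157 in WT cells. At 11 weeks (chr9:8002601-8003600) there were 282, 223 and 223 in Tg197 cells, against 158, 183 and 182 in WT cells. With TNF (chr9:8002301-8003300) there were 199, 208 and 218 in TNF-treated cells, against 142, 158 and 164 in untreated WT cells. In these 3 tables every Tg197 or TNF-treated library was above every control. The log2 changes were close to each other, at 0.48 ± 0.21, 0.47 ± 0.12 and 0.43 ± 0.16.

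Yap1 carried the highest level per kb of the 4 genes at 3 weeks, with 302.8 normalized reads per kb in Tg197 and 223.2 in WT cells, ahead of Inhba with 171.5 in Tg197 and 117.5 in WT cells. In the TNF table Inhba, at 215.7 in TNF-treated and 161.2 in untreated cells, and Yap1, at 208.5 in TNF-treated and 154.8 in untreated cells, were close. Enrichment at Yap1 was the highest of the 4 genes in Tg197 and TNF-treated cells. It was 10.18 in Tg197 and 4.88 in WT cells at 3 weeks, 7.62 in Tg197 and 3.62 in WT cells at 8 weeks, and 8.47 in Tg197 and 5.87 in WT cells at 11 weeks. With TNF it was 9.78 in treated and 3.52 in untreated cells. A position 1 to 3 kb past the TSS was held by 12.3%, 34.2% and 12.9% of all higher regions at 3, 8 and 11 weeks and by 21.3% in the TNF table. Among lower regions the shares were 6.3%, 10.8%, 7.4% and 17.9%, in the same order. The Yap1 region of 3 weeks, centred 744.5 bases past the TSS, was not of this class.

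**Figure D3:**
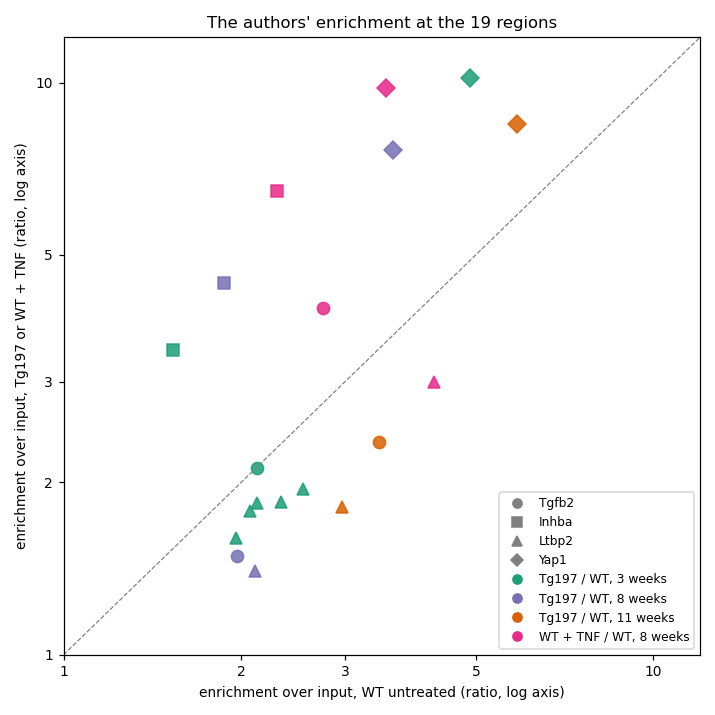
The authors' enrichment over input at each of the 19 regions, in Tg197 or TNF-treated cells (y axis) against untreated WT cells (x axis), both ratios on log axes, with marker shape for the gene and colour for the table. All Yap1 and Inhba regions lie above the line of equal values, and the Tgfb2 region of the TNF table lies above it too, at 4.03 in TNF-treated against 2.75 in untreated cells, although its normalized counts were lower.

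The authors' adjusted p-values show how far inside the listing each region was. In the authors' deposited table it was at most 0.00325 for the 19 regions, and 14 were below 0.001. The share of all listed regions below 0.001 is not given here, so nothing is read from the 14. No listed region had a window p above 0.0001. The regions nearest to that limit were Inhba at 3 weeks (9.79e-05) and Yap1 at 8 weeks (9.44e-05), and regions just outside it were not analysed here.

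The counts over the 19 regions have to be read beside the tables they come from. Groups did not overlap in 92.6%, 63.2%, 95.9% and 74.2% of the regions listed in the 4 tables, in the order used above, against 16 of the 19 here (7 of 8, 3 of 4, 3 of 3 and 3 of 4). By limma's Benjamini-Hochberg adjusted p under 0.05, 93.6%, 0.0%, 97.3% and 59.1% of listed regions were called, and 7 of 8, 0 of 4, 3 of 3 and 3 of 4 of these. At 8 weeks limma called 0 of 2923 regions (1876 had an unadjusted p under 0.05), and voom on the recovered reads also called 0 (1216 unadjusted). Since these contrasts chose the genes, nothing is read from these shares.

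Rescaling shifts all regions of a table by nearly the same amount, so which regions change sign follows from the size and direction of that shift. The median log2 change of all listed regions was -0.70, -0.86, -0.60 and -0.58 in the 3, 8 and 11 week and TNF tables under the authors' scaling. With libraries scaled to all listed regions it was -0.02, -0.05, -0.15 and -0.01, and with libraries scaled to the listed regions less than 1 kb from a TSS it was -0.99, -1.04, -0.78 and -0.73. Relative to the median of its table, Tgfb2 stood at 0.17, -0.14, 0.01 and 0.06 on the log2 scale, which is close to the typical listed region. Yap1 stood at 1.11, 1.35, 1.07 and 1.01, and Inhba at 1.23, 1.49 and 1.00 in its 3 tables. Ltbp2 stood between -0.19 and 0.02 at 3 weeks, at -0.43 and -0.17 at the later ages and at -0.85 in the TNF table. Most listed regions were lower, so a higher region stands well above these medians by its direction alone. Among regions past the authors' adjusted p under 0.05, the higher ones had medians of 0.41, 0.5, 0.59 and 0.47. The log2 changes of Yap1 and Inhba were near these and not unusual for higher regions. The lower ones had medians of -0.73, -0.97, -0.66 and -0.95.

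With scaling to all listed regions, Tgfb2 changed sign at 3 weeks (0.15 ± 0.15) and with TNF (0.06 ± 0.17), and 1 Ltbp2 region of 3 weeks came to 0.00 ± 0.14. Yap1 and Inhba were then at 0.92 to 1.44. Scaled to the regions near a TSS, all 19 regions kept their sign, with Yap1 at 0.12 ± 0.17, 0.31 ± 0.20, 0.29 ± 0.12 and 0.28 ± 0.17. The smallest Inhba value was then 0.24 ± 0.25, at 3 weeks. Which scaling holds could not be settled, because regions without a difference were not in the tables.

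**Figure D4:**
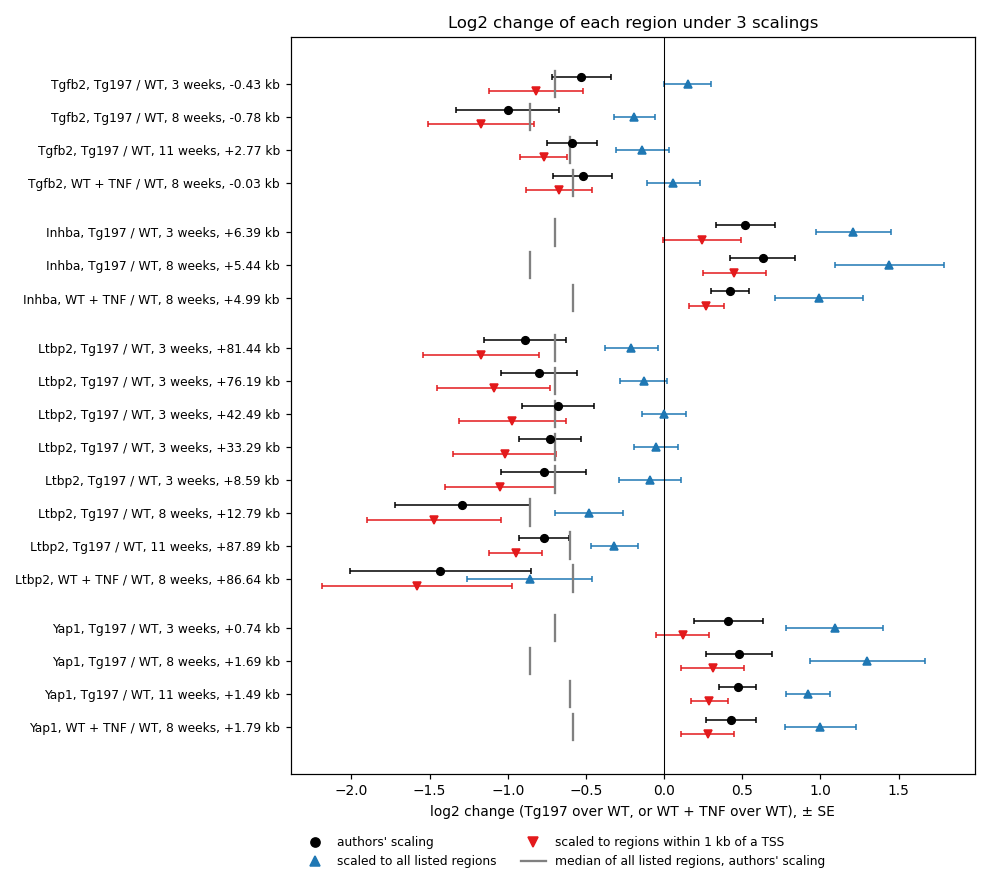
Log2 change ± SE (x axis) of each of the 19 regions under the authors' scaling (black) and under scaling to all listed regions (blue) or to those less than 1 kb from a TSS (red), with a grey line at the median of all listed regions of that table. Yap1 and Inhba stay right of 0 under all 3, whereas the Tgfb2 values of 3 weeks and TNF turn positive when scaled to all listed regions.

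Around these genes, 81 genes of TGF-beta, activin and Hippo signalling were counted in lists of ligands, latency proteins, receptors, SMADs, inhibitors and targets. Leaving out the 4 genes above, 6 of 77 had a higher and 31 a lower region past the authors' adjusted p under 0.05 at 3 weeks. The counts were 2 higher and 10 lower at 8 weeks, 11 higher and 19 lower at 11 weeks, and 6 higher and 15 lower with TNF. As shares these were 7.8%, 2.6%, 14.3% and 7.8% higher and 40.3%, 13.0%, 24.7% and 19.5% lower. Over all 21900 RefSeq protein-coding genes the shares were 5.43%, 2.46%, 6.18% and 3.24% higher and 17.9%, 5.55%, 10.2% and 6.66% lower. These 21900 genes include any that carry no H3K4me3 in fibroblasts, so the shares are given side by side and not tested. The median log2 change of the lists' regions, the 4 genes included, was -0.68, -0.74, -0.57 and -0.53, near those of all listed regions given above.

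Among ligands, Tgfb3 and Gdf11 were lower at 3 weeks. At 11 weeks Tgfb1, another TGF-beta gene, was higher and Tgfb3 and Inhbc lower, and Tgfb1 was lower with TNF. Gdf11 had 75.5 ± 8.8 normalized reads in Tg197 and 114.3 ± 14.3 in WT cells at 3 weeks (SD, n = 3 each). In the latency list Ltbp4 was lower in 3 tables, with 86.3 ± 5.6 in Tg197 and 134.1 ± 23.1 in WT cells at 3 weeks. Fbn1, which encodes the microfibril protein fibrillin 1, was lower at 3, 8 and 11 weeks. The integrin subunit gene Itgav, whose heterodimers can release TGF-beta from its latent form, was higher with TNF, with 375.9 ± 42.5 in TNF-treated and 248.0 ± 19.9 in untreated cells.

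Receptor and SMAD genes went in both directions, and a gene's regions in different tables need not be the same place. Of 10 receptor genes, 1 was higher and 3 lower at 3 weeks, and 3 were higher and 2 lower at 11 weeks. At 8 weeks 0 were higher and 1 lower, and with TNF 1 and 1. Acvr1b, an activin type I receptor gene, was lower at 3 weeks and higher at 11 weeks, where it had 328.4 ± 70.8 normalized reads in Tg197 and 219.0 ± 16.0 in WT cells. Smad3, a mediator of both ligands, had a promoter region with 300.6 ± 53.0 in Tg197 and 209.7 ± 22.5 in WT cells at 11 weeks. It also had a lower region inside the gene at that age, and its listed regions of 3 and 8 weeks were all lower. Of 11 inhibitor genes, 1 was higher and 5 lower at 3 weeks and 0 higher and 3 lower at 8 weeks. Smurf1 had regions in both directions at 3 weeks and is counted in both. At 11 weeks 1 was higher and 4 lower, and with TNF 0 and 3, in tables where most listed regions were lower (89.5%, 77.2%, 67.0% and 72.3%). Of all protein-coding genes, 5.43%, 2.46%, 6.18% and 3.24% had a higher and 17.9%, 5.55%, 10.2% and 6.66% a lower region. Lists of 10 and 11 genes are too short to set against such shares. Ski, a SMAD corepressor gene, was lower in all 4 tables.

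Target genes of TGF-beta were listed in both directions. Id1, better known as a target of bone morphogenetic proteins, was lower in 3 tables. At its promoter region of the TNF table the groups overlapped. The enrichment there ran the other way from the counts, at 4.33 in TNF-treated and 3.43 in untreated cells. Acta2, the smooth muscle actin gene, was lower at 3 weeks and higher at 8 weeks, where it had 562.1 ± 63.0 normalized reads in Tg197 and 341.7 ± 53.7 in WT cells (SD, n = 3 each).

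The DNA-binding partners of YAP were listed in both directions. Tead1 was lower at 3 and 11 weeks and higher at 8 weeks and with TNF, and its 8 week promoter region had 488.8 ± 10.3 normalized reads in Tg197 and 311.6 ± 76.4 in WT cells. Tead3 was higher at 3 weeks and with TNF, with 267.7 ± 41.7 in TNF-treated and 184.6 ± 11.8 in untreated cells. Tead4 was lower at 8 weeks and with TNF. Of 6 target genes of YAP, 0 were higher and 4 lower at 3 weeks, and none passed the threshold at 8 weeks. At 11 weeks 2 had a higher and 2 a lower region, and with TNF 0 were higher and 2 lower. Beside these counts, 5.43%, 2.46%, 6.18% and 3.24% of all genes had a higher region and 17.9%, 5.55%, 10.2% and 6.66% a lower one. A list of 6 is too short to set against such shares. Cyr61, a matricellular protein gene that is 1 of these targets, had 187.8 ± 8.1 in TNF-treated and 272.6 ± 43.3 in untreated cells, whereas its enrichment ran the other way, at 5.19 in TNF-treated and 3.39 in untreated cells.

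The genes whose log2 changes in the authors' deposited tables were nearest to each member's were found by the summed absolute difference over the tables, using the strongest region per table. Over the 199 genes listed in all 4 tables, Fas was nearest to Yap1, with log2 changes of 0.42, 0.49, 0.54 and 0.61 at 3, 8 and 11 weeks and with TNF and a summed difference of 0.26. Osbpl5, 6330406I15Rik, Gramd1a and Dusp6 followed at 0.37 to 0.45. Bat2l was nearest to Ltbp2 (0.21), ahead of Glis1, Ppard, Myh10 and Cacnb1, and Atp2a2 to Tgfb2 (0.31), ahead of 1110038B12Rik, Fam38a, Uvrag and Afmid. Over 377 genes listed in the 3 tables of Inhba, 6330406I15Rik was nearest (0.16), and Gpc4, Kdm5c and Dusp6 were also among the nearest. Genes with the same signs as the member in each of its tables numbered 14 of 199 for Yap1 and 29 of 377 for Inhba. For Tgfb2 and for Ltbp2 they numbered 107 of 199. The 8 week and TNF values share their control libraries, so nearness over them is not independent.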

How the data were processed

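H3K4me3 was measured by ChIP-seq in 21 libraries (7 groups of 3) with 1 input library. Per the labels, groups were taken from sample titles. The submitters' processing notes name the build mm9 and the tools BWA, Cuffdiff, Cufflinks, TopHat and TopHat2, with no roles or versions. Which program called the regions was not given in the sources used here. By the deposited headers, each region carries 3 normalized read counts per group, made by the authors and packed in 1 cell with no replicate numbers. The deposited averages are the signal, the mean of those counts. The deposited enrichment columns are a ratio over input, scaled in an unstated way. Fold changes were deposited as log2 values. The deposited p-value columns hold the authors' test of a region and of its best window. The window p was at most 0.0001 in every listed region, so unchanged places are missing.

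All values were whole multiples of 1 step per library within 0.02 normalized reads, so reads were recovered and give the depth. The headers name only a treatment and a control. Reads of the control agreed in 162 of 162 values at 54 regions shared by the 8 week and TNF tables, and WT of 8 weeks is the group both have in common, so control was taken as WT throughout. Positions come from the deposited annotation (mm9), turned by strand. Log2 changes and SE are from limma 3.58.1 in R 4.3.3 (trend in the variance) on log2(normalized count + 0.5), fitted on each whole table. The fit was also tried on simulated data in which most regions were unchanged. The tables here list only regions that differed, so nothing is read from that trial. The values were normalized counts rather than whole counts, so limma was used as planned for that case.

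The members and lists were chosen with earlier results of these data known. The text names the 4 genes, up to 6 further genes per comparison with values (those past the authors' adjusted p of 0.05 within 3 kb of a TSS, by absolute log2 change), and up to 5 most alike genes. Other listed genes are named without values, after their directions were seen. Values of some genes that meet these rules are not reported here. Alternatives were other pseudocounts, a filter, 2 scalings, voom, stricter thresholds and leaving out libraries. Reads carry no molecular identifiers, so depth limits precision by counting error at least.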

Additional observations from a re-analysis of the deposited data

Results flagged for a closer look

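Smad3 was the 1 gene of the pathway lists with overlapping regions that went in opposite directions at different ages, without overlap between the groups at either. Both regions lie inside the gene, about 107 kb past its TSS, and share 900 bp. At 3 weeks (chr9:63497501-63499400) there were 163, 139 and 163 normalized reads in Tg197 cells, against 229, 232 and 274 in WT cells, a log2 change of -0.66 ± 0.17. At 11 weeks (chr9:63498501-63499600) there were 216, 127 and 124 in Tg197 cells, against 99.3, 91.6 and 104 in WT cells, a log2 change of 0.61 ± 0.20. Enrichment over input was 1.83 in Tg197 and 2.02 in WT cells at 3 weeks, and 3.04 in Tg197 and 1.84 in WT cells at 11 weeks. The median log2 change of all listed regions under the authors' scaling was -0.70 at 3 weeks and -0.60 at 11 weeks. The 3 week value of Smad3 was thus near that of a typical listed region, and its sign may depend on the scaling. With libraries scaled to all listed regions the 3 week median was -0.02, so the opposite directions may not hold under that scaling. Values of these regions under the other scalings are not reported here. The search used a limit of 50% on the overlap of 2 regions. The difference between the ages was not tested. Groups of 3 libraries are too small for a single library to be tested as an outlier.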

How the results depend on the processing

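Across pseudocounts of 1 and 0.1, a minimum mean of 20 (which removed 0 regions) and voom, all 19 regions kept their sign and moved by less than 1 SD of their libraries, as did all 114 values with 1 library left out. Of those 114, 3 moved by over 1.5 times (2 at Ltbp2 and 1 at Yap1, all at 3 weeks), with values in the report. With scaling to all listed regions 16 moved by more and 2 reversed, Tgfb2 at 3 weeks (0.15) and with TNF (0.06). Scaled to the regions less than 1 kb from a TSS, 10 moved and 0 reversed. For these shifts the cause was not tested. At 8 weeks limma called 0 of the 4 regions and 0 pathway genes instead of 16. At an authors' adjusted p of 0.001, 2 of 4 regions and 11 of 25 pathway genes were left with TNF. The share of all listed regions left at that threshold is not given here. With regions within 3 kb of a TSS alone, pathway genes numbered 20 instead of 39 at 3 weeks, 7 instead of 16 at 8 weeks, 16 instead of 31 at 11 weeks and 15 instead of 25 with TNF, since fewer regions enter.

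At 11 weeks limma called 3 of 3 regions whichever library was left out. Of the 8 regions of 3 weeks it called 7, 7 and 8 without Tg197 library a, b or c, but 0 without WT library c (6 had an unadjusted p under 0.05), 3 without a and 5 without b, against 7 with all libraries. At 8 weeks it called all 4 without WT library c and 0 without any other library (1 to 3 unadjusted). With TNF it called 4 without WT library c and 2 without TNF-treated library a. It called 0 without any of the others (1 to 3 unadjusted), against 3 with all libraries. Calls over all listed regions moved the same way. At 3 weeks they were 0 of 13603 without WT library c and 7948 to 13397 without any other. At 8 weeks they were 2563 of 2923 without WT library c and 0 without any other. With TNF they were 2770 of 3082 without WT library c, 1757 without TNF-treated library a and 0 without the others. At 11 weeks they were 6139 to 6276 of 6593. The counts of member regions follow these and are not a result about the 4 genes. No paired analysis was possible because the deposited cells give no replicate numbers for their values.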
